A study of Paeonia suffruticosa with 12 samples.

Results

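Unigenes named as GDSL esterases (n = 4) were followed in tree peony "FengDan" (Paeonia suffruticosa) embryo seedlings, and the split among them was the main pattern: GDL34, GDL29 and APG2 were higher in every library from medium with activated carbon than in any library without it, whereas GDL38 had its lowest means on carbon and its highest on polyvinyl pyrrolidone alone. They were GDL38 (TRINITY_DN3379_c0_g1), GDL34 (TRINITY_DN8165_c0_g1), GDL29 (TRINITY_DN39582_c0_g1) and APG2 (TRINITY_DN18243_c1_g1), 4 of the 130956 unigenes in the count tables, and all 4 passed the filter on low counts. A unigene is the longest transcript of an assembled gene. The members were taken by identifier and had been chosen by measured values: each stands in the study's own lists of differentially expressed unigenes for 3 comparisons (AC and PVP vs. PVP, AC vs. PVP, AC vs. CK), which were selected on the fold changes and p-values of these same libraries. Their differences in those comparisons are therefore given below as a description, with no test. The tables of counts carry no gene names or sequences, and the family name rests on the annotation column of those lists.

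The study asked how activated carbon (AC) and the polymer polyvinyl pyrrolidone (PVP), added against browning, relate to rooting of seedlings grown from excised embryos, whose wounded tissue browns as its phenolic compounds are oxidized. The groups were AC and PVP (0.9 g/L AC with 2.5 g/L PVP), AC (0.9 g/L), PVP (2 g/L) and CK, the control with neither agent, each with 3 libraries. The PVP doses of the AC and PVP group and of the PVP group therefore differed. Each sample pooled 10 embryo seedlings of mixed tissue, and all carried the same age label, 30 days after rooting. For PVP and CK, whose seedlings did not root by the study's account, the age that this label stands for is not known. The labels name roots, stems and leaves, the methods leaves and roots. In such mixed tissue, fewer cells of a type and less RNA per cell cannot be told apart. The methods call the libraries of a group biological replicates, but neither they nor the labels say whether these came from separate culture vessels, so the p-values measure the spread between these samples. By the study's own account, seedlings of AC and PVP and of AC rooted and those of PVP and CK did not, so every difference between libraries with and without AC is also a difference between rooted and unrooted seedlings, and the effects of carbon and of rooting cannot be told apart.

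GDSL esterases form a large plant family of secreted serine hydrolases, named for a Gly-Asp-Ser-Leu motif around the catalytic serine. Some members join or cut the ester bonds of the lipid polyesters that seal plant surfaces. In tomato, a GDSL enzyme links monomers into cutin in the fruit cuticle, and in Arabidopsis, others build or break down suberin, the polyester of root endodermis and periderm. GDL38, GDL34 and GDL29 carry short names of Arabidopsis GDSL esterase/lipases, and APG2 is read here as the short name of a GDSL esterase/lipase of the APG (anther-specific proline-rich) type. An unrelated Arabidopsis gene has also been called APG2, and without a sequence this reading could not be checked. Which lipid any of these peony proteins acts on is not known from these data.

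The libraries held between 11071691 and 25069044 estimated counts, with a median of 20067557.5, and the shallowest was AC and PVP replicate 3. By the study's read statistics, that library also had the lowest share of high-quality bases. Levels are CPM, counts scaled to a common library total (counts per 1e6) after TMM scaling, a correction for differences in RNA composition. They are not corrected for transcript length, so levels were compared between libraries and not between unigenes. Markers of seed storage proteins and oil bodies (15 unigenes), which mark reserve tissue of the embryo, summed to 2530 to 20100 unscaled CPM in AC and PVP, 3240 to 28200 in AC, 1960 to 5820 in PVP and 3520 to 47400 in CK. All 15 were above 0 in the libraries with AC and in CK replicate 2, and 11 to 13 in the others. A vicilin unigene (VICHY, TRINITY_DN913_c0_g1) makes up much of the PVP sums, with 1490 ± 711 CPM in AC and PVP, 1470 ± 722 in AC, 4410 ± 1940 in PVP and 2170 ± 678 in CK, and most other reserve markers ran the other way. The log2 fold change was above 0 for 14 of 15 in AC and PVP vs. PVP (median 5.59) and in AC vs. PVP (median 6.01), and below 0 for 13 of 15 in PVP vs. CK (median -5.49) in the edgeR fit. EdgeR called 0 of the 15 in each of these comparisons. Unadjusted, 14, 14 and 13 had an edgeR p under 0.05, beside 5487, 5010 and 6514 of all 58247 unigenes tested. DESeq2 over all libraries called 6 higher and 0 lower, 7 higher and 1 lower, and 1 higher and 6 lower. Of all unigenes, it called 0.575%, 1.24% and 2.87% in these comparisons. CK replicate 2 stood apart from the other CK libraries with that sum of 47400, against 3800 and 3520. One reserve marker, 2SS (TRINITY_DN7446_c0_g1), ranged from 15.7 to 27200 CPM in CK and from 11.7 to 57.7 in PVP. The VICHY unigene, by contrast, ranged from 1390 to 2620 CPM in CK. The marker values of PVP vs. CK and of the interaction given below therefore lean on CK replicate 2, and how far they hold without it was not tested. Leaf photosynthesis markers (8 to 11 of 11 present) summed to 45.6 to 443 unscaled CPM and endodermis and root markers (4 or 5 of 5 present) to 10.5 to 37.3, so unigenes of both lists were detected in all 12 libraries, including those of unrooted seedlings.

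GDL38, the member that was low on carbon, had 2.56, 3.22 and 3.70 CPM in the AC and PVP libraries and 1.06, 0.989 and 0.843 CPM in AC. In PVP it reached 20.9, 13.3 and 54.3 CPM, and in CK 7.23, 3.59 and 13.2 CPM. Thus AC had the lowest values, the AC and PVP libraries came next, and PVP the highest, with PVP replicate 3 far above the rest. Group means were 3.16 ± 0.569 CPM in AC and PVP, 0.964 ± 0.110 in AC, 29.5 ± 21.8 in PVP and 8 ± 4.84 in CK (SD, n = 3 each). The 6 libraries with AC lay between 0.843 and 3.70 CPM and the 6 without between 3.59 and 54.3 CPM, an overlap that consists of AC and PVP replicate 3 at 3.70 CPM and CK replicate 2 at 3.59 CPM. Without TMM scaling, those 2 libraries had 3.70 and 3.75 CPM and no overlap remained. CK replicate 2 had both the lowest GDL38 of its group and the highest seed reserve sum, and the part of the reserve tissue in this value was not tested.

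GDL34 had 30.1, 23.5 and 30.6 CPM in AC and PVP, 9.86, 23.7 and 14.5 CPM in AC, 6.99, 3.19 and 4.31 CPM in PVP, and 3.75, 5.70 and 3.73 CPM in CK. Every library with AC was above every library without it, whereas AC overlapped with AC and PVP through AC replicate 2, and PVP overlapped with CK. The means were 28.1 ± 3.96, 16 ± 7.04, 4.83 ± 1.95 and 4.39 ± 1.13 CPM in AC and PVP, AC, PVP and CK (SD, n = 3 each). The mean over the 6 libraries with AC was 4.78 times that over the 6 without.

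APG2 followed the same order of groups. Its level was 99.7, 77 and 136 CPM in AC and PVP, 55.2, 80.0 and 74.3 CPM in AC, 27.7, 15.2 and 22.3 CPM in PVP, and 8.48, 15.3 and 17.9 CPM in CK. The lowest library with AC (55.2 CPM) was thus well above the highest library without it (27.7 CPM), and again neither AC and PVP with AC nor PVP with CK separated. Group means were 104 ± 29.9, 69.9 ± 13, 21.8 ± 6.26 and 13.9 ± 4.85 CPM in AC and PVP, AC, PVP and CK (SD, n = 3 each), and the ratio of the means with and without AC was 4.89.

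GDL29 was close to absent without carbon. It had 4.70, 2.08 and 7.21 CPM in AC and PVP and 2.00, 1.98 and 1.14 CPM in AC, from 31 to 99 and from 19 to 49 estimated counts. In PVP it had 0.0423, 0.106 and 0.188 CPM, from 1, 2 and 3 counts, and in CK 0.0893, 0.404 and 0 CPM, from 3, 9 and 0 counts. The 6 libraries with AC (1.14 to 7.21 CPM) did not overlap with the 6 without (0 to 0.404 CPM), and the ratio of their means was 23.0. The low side rests on 6 counts summed over PVP (95% Poisson interval 2.2 to 13.1) and 12 over CK (6.2 to 21), intervals that cover counting error only. CK replicate 2, the library with the highest seed reserve sum, held 9 of those 12 counts; the part of the reserve tissue in them was not tested.

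**Figure D1:**
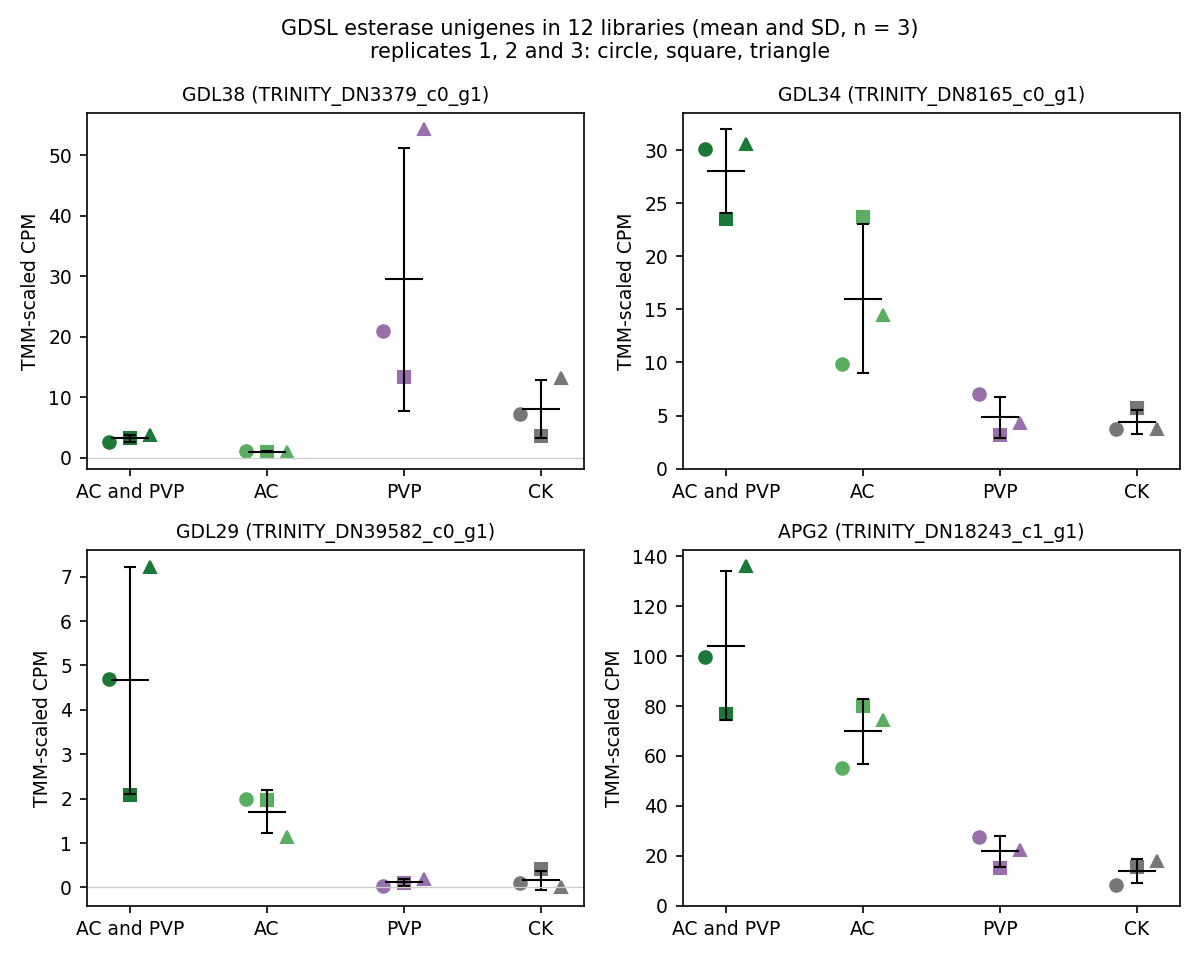
TMM-scaled CPM of GDL38, GDL34, GDL29 and APG2 (y axis, a scale of its own in each panel) in the 3 libraries of AC and PVP, AC, PVP and CK (circle, square and triangle for replicates 1, 2 and 3), with group mean and SD as bars. GDL34, GDL29 and APG2 are highest in the libraries with AC, while GDL38 peaks in PVP at 13.3 to 54.3 CPM and is at 0.843 to 1.06 CPM in AC.

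Of all 58247 unigenes tested, 0.282% had the 6 libraries with AC all above the 6 without, and 0.543% had them all below. GDL34, GDL29 and APG2 had all libraries with AC above, and as the members were chosen for such differences, nothing is read from their number.

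In the comparisons that gave the members their names, the log2 fold changes ran in opposite directions for GDL38 and the other unigenes. For AC vs. CK, the log2 fold change was -3.04 (SE 0.527) for GDL38, 1.87 (SE 0.363) for GDL34, 3.43 (SE 0.728) for GDL29 and 2.33 (SE 0.349) for APG2. For AC vs. PVP, where GDL38 was further down, the values were -4.92 (SE 0.564), 1.72 (SE 0.363), 3.96 (SE 0.807) and 1.68 (SE 0.342) in the same order. For AC and PVP vs. PVP they were -3.23 (SE 0.515), 2.53 (SE 0.372), 5.39 (SE 0.799) and 2.26 (SE 0.348). With edgeR, a unigene was called where its adjusted p was under 0.05 and its absolute log2 fold change over 1. Under that rule 3 of 4 members were called in AC vs. CK, 2 of 4 in AC vs. PVP and 4 of 4 in AC and PVP vs. PVP, beside 0.323%, 0.263% and 0.0704% of all unigenes tested, and no meaning is attached to these counts because the rule used the same contrasts. GDL38 was the sole member called lower in each of them. Its value depended on PVP replicate 3: without that library the log2 fold change was -4.14 for AC vs. PVP and -2.44 for AC and PVP vs. PVP. In AC vs. CK it was -2.43 for GDL38 without CK replicate 3, and 4.95 for GDL29 without CK replicate 2. The shift of the reserve markers given above accompanied both comparisons with PVP, and its part in the members' values was not tested.

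The study also listed differentially expressed unigenes for AC vs. AC and PVP, but the members were not taken from that list. It gave no list for PVP vs. CK, for AC and PVP vs. CK or for the interaction. Each of the 3 remaining comparisons and the interaction is a sum or difference of the 3 comparisons that chose the members. Their p-values are given as the model returned them, are no independent test of the members, and nothing is read from the number of members called. For AC and PVP vs. CK, which sets both agents together against neither, GDL34, GDL29 and APG2 rose. The log2 fold change was 2.68 (SE 0.373) for GDL34, 4.87 (SE 0.733) for GDL29 and 2.91 (SE 0.357) for APG2, and the edgeR quasi-likelihood test gave adjusted p-values of 0.01, 0.01 and 0.0063 (n = 3 each). In each of these unigenes, all 3 AC and PVP libraries were above all 3 CK libraries, as in 5.83% of all unigenes tested. GDL38 had 2.56 to 3.70 CPM in AC and PVP and 3.59 to 13.2 CPM in CK, with a log2 fold change of -1.35 (95% interval -2.38 to -0.31) that did not pass (edgeR adjusted p = 0.24), and the groups overlapped; without CK replicate 3 it was -0.75. Thus 3 of 4 members were called, all higher; of all unigenes, 0.834% were called in either direction and 0.464% higher. The median log2 fold change was 2.79 over the members and -0.12 over all unigenes, values that follow in part from how the members were chosen. Without CK replicate 3 the call was lost for GDL34 (edgeR adjusted p = 0.05), and 2 members were called, whereas 3 were called without CK replicate 2, where GDL29 had a log2 fold change of 6.38. The leaf photosynthesis markers summed to 257 to 421 unscaled CPM in AC and PVP and 45.6 to 209 in CK, but their 11 unigenes did not move together: 2, both named CB21, were called higher, 9 were not called, and the log2 fold change was above 0 for 7 and below 0 for 4. Their part in these results was not tested.

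GDL34 and GDL29 overlapped between PVP and CK, and the sign of neither difference was settled. For PVP vs. CK, the log2 fold change was 0.14 (95% interval -0.62 to 0.90) for GDL34, with an edgeR adjusted p of 0.91, and -0.52 (95% interval -2.58 to 1.54) for GDL29, with 0.86. The GDL29 interval is wide and rests on the few counts given above, and neither result shows that the groups are alike. Leaving out PVP replicate 1 turned the value of GDL34 to -0.23, and leaving out CK replicate 2 turned that of GDL29 to 0.99. APG2 had 15.2 to 27.7 CPM in PVP and 8.48 to 17.9 CPM in CK, a log2 fold change of 0.65 (95% interval -0.06 to 1.36) with an edgeR adjusted p of 0.50.

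GDL38 differed most between PVP and CK. Its 3 PVP libraries (13.3 to 54.3 CPM) were above its 3 CK libraries (3.59 to 13.2 CPM), by a narrow gap, as in 5.99% of all unigenes; without TMM scaling the groups overlapped, with 10 to 41.6 CPM in PVP and 3.75 to 17.4 CPM in CK. The log2 fold change was 1.88 (SE 0.481, 95% interval 0.86 to 2.90), and the edgeR adjusted p of 0.088 did not pass. The call depended on tool, filter and design: the adjusted p was 0.012 with DESeq2 over all libraries, 0.034 with DESeq2 over the 2 groups, and in edgeR 0.00015 with no filter and 0.0046 with the replicate number as a block. The log2 fold change was 1.18 with library sizes alone and 1.10 without PVP replicate 3. By edgeR 0 of 4 members were called in PVP vs. CK, where it called 0.704% of all unigenes. Unadjusted, 1 member had an edgeR p under 0.05, as had 6514 of the 58247 unigenes tested. DESeq2 called 1 member in each of its fits, and 2.87% of all unigenes over all libraries and 2.79% over the 2 groups. In the same comparison the leaf photosynthesis markers summed to 195 to 443 unscaled CPM in PVP and 45.6 to 209 in CK, with 2 of 11 called higher (both CB21), 9 not called, and a log2 fold change above 0 for 7 and below 0 for 4. The part of these and of the reserve markers, of which 13 of 15 had a log2 fold change below 0, in the GDL38 value was not tested. Those reserve marker values lean on CK replicate 2.

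AC vs. AC and PVP sets carbon alone against carbon with PVP. All 4 members had lower means in AC. GDL38 had 0.843 to 1.06 CPM in AC and 2.56 to 3.70 CPM in AC and PVP, with a log2 fold change of -1.70 (SE 0.522) and an edgeR adjusted p of 0.77. GDL29 had 1.14 to 2.00 CPM in AC and 2.08 to 7.21 CPM in AC and PVP, with a log2 fold change of -1.43 (SE 0.588) and an edgeR adjusted p of 0.78. In both unigenes the AC libraries were all below the AC and PVP libraries, as in 3.76% of all unigenes, although for GDL29 the groups overlapped without TMM scaling. For GDL34 the log2 fold change was -0.81 (SE 0.352) and for APG2 -0.58 (SE 0.333), each with overlapping groups and an edgeR adjusted p of 0.78. EdgeR called 0 of 4 members and 0.00687% of all unigenes. Unadjusted, 3 members had an edgeR p under 0.05, as had 3662 of the 58247 unigenes tested. DESeq2 called 0 members, and 0.0704% of all unigenes over all libraries and 0.144% over the 2 groups.

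The interaction term asks whether the difference that AC made was the same with PVP as without it; its PVP groups had different doses, an effect that cannot be told apart from it. It was -0.18 (95% interval -1.71 to 1.34) for GDL38, 0.67 (-0.40 to 1.73) for GDL34, 1.95 (-0.47 to 4.38) for GDL29 and -0.07 (-1.07 to 0.93) for APG2, on the log2 scale. All 4 intervals include 0, so the sign was settled for none, and the GDL29 value was 0.44 without CK replicate 2. Of the 15 reserve markers, 13 had an interaction above 0 (median 4.77, none called by edgeR, 7 with an unadjusted p under 0.05, 1 called by DESeq2), and their part in the members' values was not tested. These marker values, too, lean on CK replicate 2. EdgeR called 0 of 4 members and 0.00172% of all unigenes. Unadjusted, 0 members had an edgeR p under 0.05, beside 4351 of the 58247 unigenes tested. DESeq2 on all libraries called 0 members and 0.179% of all unigenes.

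**Figure D2:**
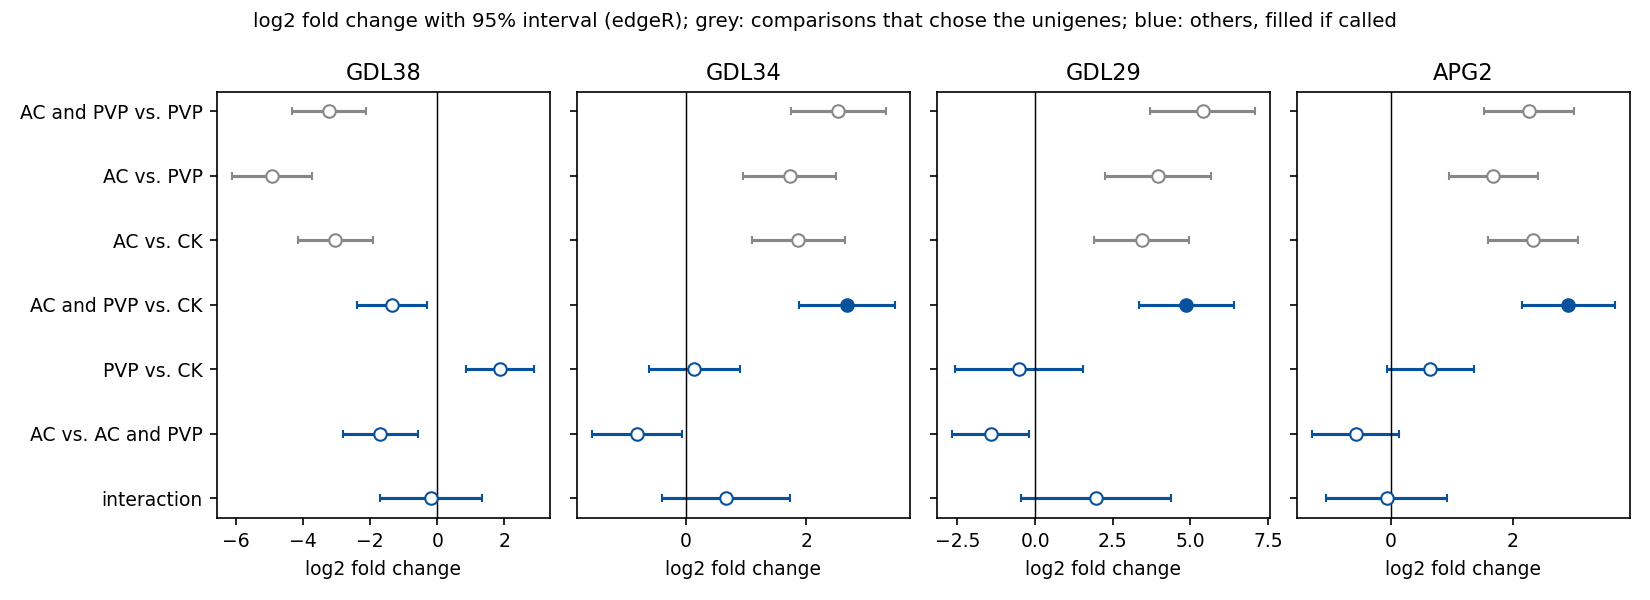
Log2 fold change with its 95% interval (x axis, a scale of its own in each panel) of GDL38, GDL34, GDL29 and APG2 in 6 comparisons and the interaction (y axis), from the edgeR model of all 12 libraries, with the 3 comparisons that chose the unigenes in grey, drawn as unfilled points whether called or not, and the others in blue, filled where called. The filled blue points are those of GDL34, GDL29 and APG2 in AC and PVP vs. CK, at 2.68, 4.87 and 2.91.

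The balance between members within a library does not depend on the scaling. The count of APG2 was 38.9, 23.9 and 36.8 times that of GDL38 in AC and PVP, 52.2, 80.8 and 88.2 times in AC, 1.33, 1.14 and 0.411 times in PVP, and 1.17, 4.26 and 1.36 times in CK. Libraries with AC were all above 23, and libraries without it all below 5, a gap that the choice of members fixes. For GDL34 over GDL38 the ratio was 11.7, 7.29 and 8.27 in AC and PVP, 9.31, 23.9 and 17.2 in AC, 0.335, 0.239 and 0.0795 in PVP, and 0.519, 1.59 and 0.283 in CK. In both ratios PVP replicate 3 was the lowest library and CK replicate 2 the highest of those without AC. Since transcript length differs between unigenes, the ratios can be read between libraries and not as relative abundance of the transcripts.

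**Figure D3:**
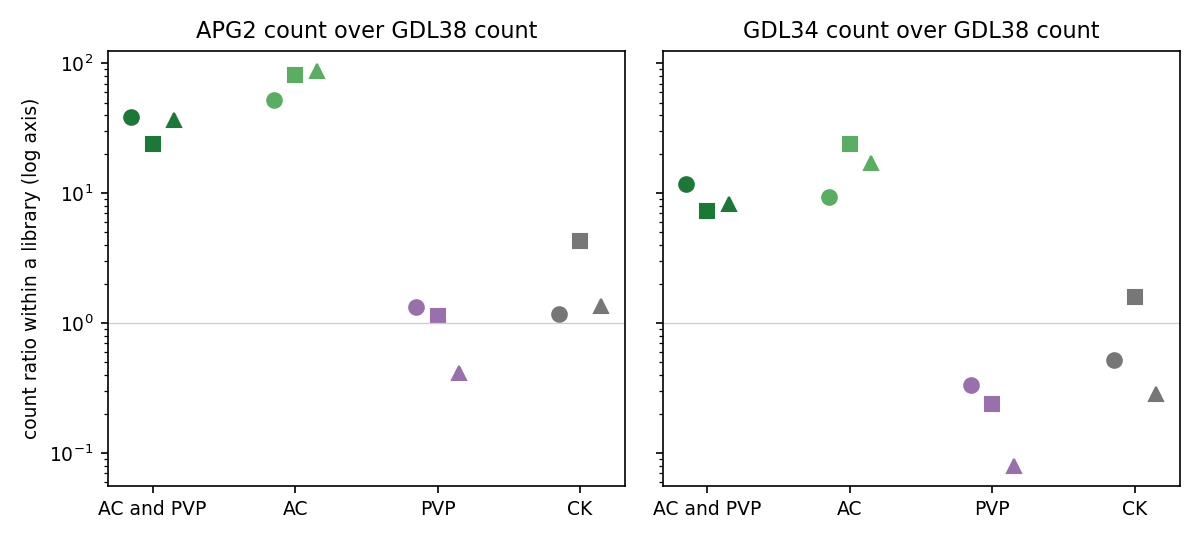
Count of APG2 (left) and of GDL34 (right) over the count of GDL38 in the same library (y axis, log axis) in AC and PVP, AC, PVP and CK, with circle, square and triangle for replicates 1, 2 and 3. The APG2 ratio is 23.9 to 88.2 in the 6 libraries with AC and 0.411 to 4.26 in the 6 without.

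The study's lists name 8 more unigenes as GDSL esterases, all of which passed the filter, and 3 of them separated the libraries with AC from those without it. Of all unigenes tested, 0.282% had the libraries with AC all above the others and 0.543% all below. As the 8 were named in lists from these same libraries, nothing is read from the number that separated. GDL31 (TRINITY_DN775_c0_g1) and GDL80 (TRINITY_DN3267_c0_g1) stand in the same 3 lists as the members without being among them. GDL31 averaged 3.02 ± 1.00 CPM in AC and PVP, 1.21 ± 0.299 in AC, 21.8 ± 10.1 in PVP and 8.47 ± 5.36 in CK (SD, n = 3 each), a pattern close to that of GDL38. GDL80 averaged 6.13 ± 0.572 CPM in AC and PVP, 3.49 ± 1.26 in AC, 58.7 ± 49.3 in PVP and 29.3 ± 26.3 in CK. For both, the 6 libraries with AC were all below the 6 without. A second unigene named GDL29 (TRINITY_DN596_c0_g2) averaged 2.82 ± 1.3, 1.78 ± 0.913, 0.243 ± 0.269 and 0.209 ± 0.363 CPM in AC and PVP, AC, PVP and CK, and had all libraries with AC above all without, like the member of that name. Whether the 2 unigenes named GDL29 are paralogs or parts of a single gene cannot be told from the counts; the member's counts were whole numbers in every library, while those of the second were not in PVP replicate 1 and CK replicate 2, where reads were divided among transcripts. The other 5 (GDL61, GDL66, GDL71, GDL78 and GDL83) had overlapping ranges with and without AC.

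Of these 8, edgeR called 2 higher and none lower in AC and PVP vs. CK and likewise in PVP vs. CK, where 0.834% and 0.704% of all unigenes were called. DESeq2 on the 2 groups called 3 higher and 1 lower in each, where it called 2.48% and 2.79% of all unigenes. On all libraries it called 3 higher and 1 lower in AC and PVP vs. CK and 3 higher and 0 lower in PVP vs. CK. That fit called 2.76% and 2.87% of all unigenes. GDL71 averaged 8.47 ± 0.517 CPM in AC and PVP, 9.21 ± 4.56 in PVP and 2.21 ± 0.772 in CK, and rose in AC and PVP vs. CK (log2 fold change 1.93, edgeR adjusted p = 0.025) and in PVP vs. CK (2.06, edgeR adjusted p = 0.024). GDL66 rose in PVP vs. CK (2.25, edgeR adjusted p = 0.047), and GDL83 in AC and PVP vs. CK (2.87, edgeR adjusted p = 0.01). The median log2 fold change of the 8 was 1.18 in PVP vs. CK and -0.78 in AC and PVP vs. CK, against -0.16 and -0.12 over all unigenes. None was called in AC vs. AC and PVP by edgeR or DESeq2. Unadjusted, 1 had an edgeR p under 0.05 there, beside 3662 of the 58247 unigenes tested. As these unigenes were named in the study's lists from the same libraries, their counts are not independent evidence.

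**Figure D4:**
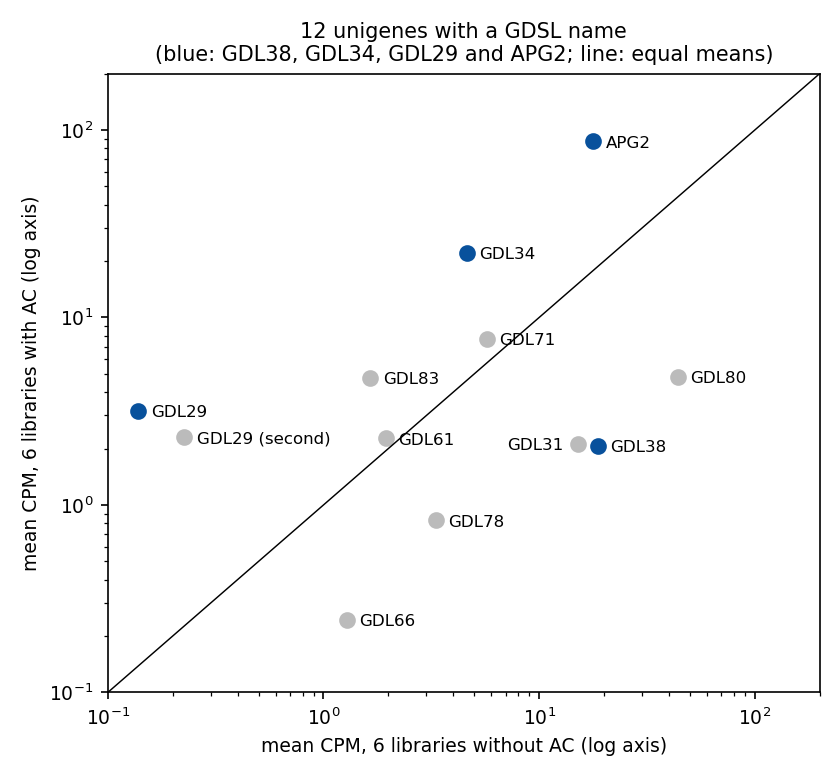
Mean TMM-scaled CPM over the 6 libraries with AC (y axis, log axis) against the mean over the 6 libraries without AC (x axis, log axis) for the 12 unigenes with a GDSL name, with GDL38, GDL34, GDL29 and APG2 in blue and the other 8 in grey. APG2, GDL34 and both GDL29 unigenes lie above the line of equal means, and GDL38 lies beside GDL31 below it.

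Unigenes listed for the synthesis of cutin, suberin and wax were taken as the pathway around the esterases. Most are named for enzymes that make the monomers, but AB6G (TRINITY_DN19942_c0_g1) is named for an ABC transporter. Of 18 such unigenes, all tested, edgeR called 3 higher and 1 lower in AC and PVP vs. CK, where it called 0.834% of all unigenes. DESeq2 called 3 higher and 5 lower on all libraries and 3 higher and 1 lower on the 2 groups. Those DESeq2 fits called 2.76% and 2.48% of all unigenes. In PVP vs. CK, where edgeR called 0.704% of all unigenes, it called 0 of the 18. Unadjusted, 8 had an edgeR p under 0.05, beside 6514 of all 58247 unigenes tested. DESeq2 called 1 higher over all libraries and 0 over the 2 groups, beside 2.87% and 2.79% of all unigenes. The median log2 fold change of the 18 was -1.23 in AC and PVP vs. CK and 0.93 in PVP vs. CK. HHT1 (TRINITY_DN676_c0_g1), a feruloyl transferase that adds aromatic groups to suberin monomers, averaged 48.0 ± 12.5 CPM in AC and PVP, 34.7 ± 10.4 in AC, 285 ± 114 in PVP and 183 ± 98.2 in CK, and fell in AC and PVP vs. CK (log2 fold change -1.93, edgeR adjusted p = 0.044). DCR (TRINITY_DN5597_c0_g1), an acyltransferase needed for cutin in Arabidopsis, ran the other way, with 17.7 ± 4.24, 15.5 ± 1.64, 7.93 ± 3.68 and 3.94 ± 1.82 CPM in AC and PVP, AC, PVP and CK, and rose in AC and PVP vs. CK (2.16, edgeR adjusted p = 0.023). FACR2 (TRINITY_DN3720_c0_g1), a fatty acyl-CoA reductase of the kind that makes fatty alcohols, averaged 9.29 ± 3.10, 7.90 ± 2.15, 29.6 ± 4.47 and 25.2 ± 12.7 CPM in the same groups, and its log2 fold change of -1.44 in AC and PVP vs. CK did not pass (edgeR adjusted p = 0.10). The list thus held unigenes with the direction of GDL38 and others with that of APG2, and more of the former. In AC and PVP vs. CK the log2 fold change was below 0 for 12 of 18 and above 0 for 6. In AC vs. CK, 13 were below 0 and 5 above (median -1.75), with 1 called higher and 4 lower by edgeR, beside 0.323% of all unigenes. That split also held when either group with AC was set against PVP (median -2.55 for AC, -1.76 for AC and PVP). EdgeR called 0 higher there, with 9 and 2 lower, beside 0.263% and 0.0704% of all unigenes. The list too was built from the study's lists, which include those for these comparisons, and nothing is read from the counts.

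Lipid transfer proteins anchored to the membrane by a GPI group carry lipids toward the cell wall. Of 11 such unigenes, edgeR called 2 higher and none lower in AC and PVP vs. CK, where 0.834% of all unigenes were called. In PVP vs. CK, where 0.704% were called, it also called 2 higher and none lower. Of the 11, 7 had a log2 fold change below 0 in the former (median -0.64). In the latter all 11 were above 0 (median 1.27). In AC vs. CK, 8 were below 0 and 3 above (median -2.67), with 1 called higher and 4 lower by edgeR, beside 0.323% of all unigenes. That split also held when either group with AC was set against PVP (median -4.81 for AC, -2.66 for AC and PVP). EdgeR called 0 higher there, with 6 and 2 lower, beside 0.263% and 0.0704% of all unigenes. In AC and PVP vs. CK, DESeq2 called 3 higher and 1 lower in both of its fits, and in PVP vs. CK 3 were higher in the fit of all libraries and 4 in that of the 2 groups. Of all unigenes, the fit of all libraries called 2.76% in AC and PVP vs. CK and 2.87% in PVP vs. CK. The fit of the 2 groups called 2.48% and 2.79%. LTG15 (TRINITY_DN10081_c0_g1) averaged 24.3 ± 8.76 CPM in AC and PVP, 5.75 ± 1.22 in AC, 213 ± 149 in PVP and 28.7 ± 15.8 in CK, and rose in PVP vs. CK (log2 fold change 2.89, edgeR adjusted p = 0.023). LTPG5 (TRINITY_DN26209_c0_g1) had a like profile, with 7.92 ± 2.53, 1.94 ± 0.444, 56.3 ± 45.7 and 12.4 ± 5.19 CPM in AC and PVP, AC, PVP and CK, and missed the threshold in PVP vs. CK (2.18, edgeR adjusted p = 0.052). LTPG1 (TRINITY_DN6118_c0_g1) averaged 70.3 ± 8.61, 58.8 ± 15.1, 44.6 ± 8.06 and 24.4 ± 4.71 CPM in these groups and rose in AC and PVP vs. CK (1.53, edgeR adjusted p = 0.024). This list, too, came from unigenes the study had called on these libraries.

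For each member, the named unigenes with the most similar profile were sought among 14607 unigenes with a mean of at least 1 CPM, by Pearson's r of log2 CPM over the 12 libraries. Names were at hand for 769 unigenes, all from the study's lists, and the libraries form groups, so r describes the profile and carries no p. GDL38 was nearest to CSPL5 (TRINITY_DN2359_c0_g1, a CASP-like membrane protein, r = 0.988, Spearman's rho = 0.993), PER11 (TRINITY_DN112784_c0_g1, a class III peroxidase, r = 0.987, rho = 0.937) and GDL31 (r = 0.987, rho = 0.972), and these also ranked 1 to 3 among all unigenes compared. CSPL5 averaged 2.41 ± 0.958, 0.795 ± 0.407, 22.4 ± 13.7 and 5.92 ± 3.25 CPM in AC and PVP, AC, PVP and CK, the order of GDL38. In all, 42 unigenes exceeded r = 0.9 with GDL38.

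GDL34 and APG2 resembled each other, with r = 0.949 and rho = 0.951, and APG2 was the unigene nearest to GDL34 of all compared. AS1 (TRINITY_DN3372_c0_g1, r = 0.927, rho = 0.937) and HIP7 (TRINITY_DN3674_c0_g1, r = 0.926, rho = 0.923) came next for GDL34. APG2 was nearest to ATPB (TRINITY_DN39019_c0_g1, named for an ATP synthase beta subunit, r = 0.976, rho = 0.965), followed by HIP7 (r = 0.950, rho = 0.888). ATPB averaged 179 ± 23.1 CPM in AC and PVP, 168 ± 10.3 in AC, 90.1 ± 19.0 in PVP and 66.1 ± 20.9 in CK, so it varied less between groups than APG2. The numbers of unigenes over r = 0.9 were 15 for GDL34 and 36 for APG2.

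GDL29 was nearest to PTR1 (TRINITY_DN331_c1_g1, named for a peptide transporter, r = 0.945, rho = 0.853), HIP7 (r = 0.930, rho = 0.832) and CSPLA (TRINITY_DN113520_c0_g1, another CASP-like protein, r = 0.929, rho = 0.895). Ranked by rho in place of r, none of these 3 stayed among its nearest 3. PTR1, like GDL29, was close to 0 without carbon, with 26.6 ± 24.6, 17.3 ± 16.8, 0.139 ± 0.205 and 0.130 ± 0.199 CPM in AC and PVP, AC, PVP and CK. Among the members, r was 0.921 for GDL34 with GDL29 and 0.895 for GDL29 with APG2, and it was -0.659, -0.706 and -0.607 for GDL38 with GDL34, GDL29 and APG2.

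**Figure D5:**
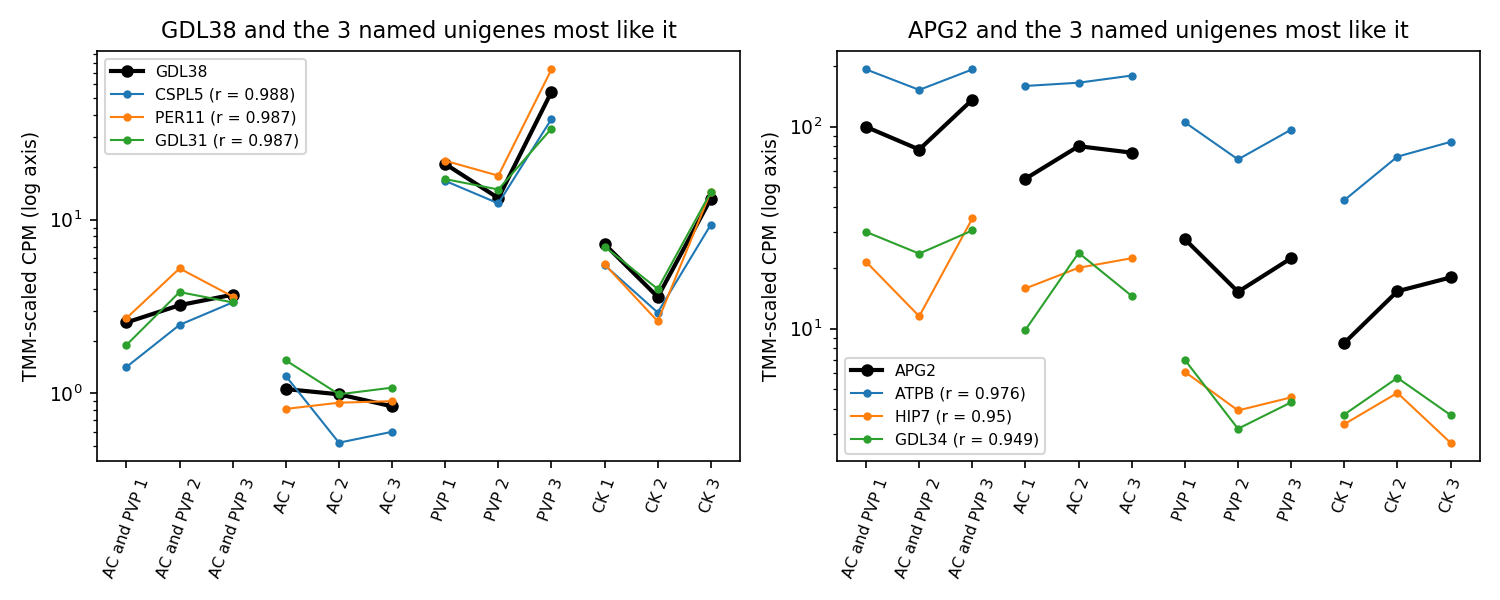
TMM-scaled CPM (y axis, log axis) of GDL38 (left) and APG2 (right), in black, and of the 3 named unigenes most like each, in color, in every library (x axis), with lines joining the libraries of a group only to guide the eye. GDL38, CSPL5, PER11 and GDL31 are all lowest in AC and highest in PVP, whereas APG2, ATPB, HIP7 and GDL34 are higher in AC and PVP and in AC than in PVP and CK.

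In the assembler's names, no other unigene had the DN number of GDL38, GDL34 or GDL29, while 3 other tested unigenes shared that of APG2. The next part of the name differed, with c0 or c2 in these 3 and c1 in APG2. The nearest in behavior was TRINITY_DN18243_c2_g1, with 1.10 ± 0.379 CPM in AC and PVP, 1.38 ± 0.222 in AC, 0.640 ± 0.0974 in PVP and 0.358 ± 0.206 in CK, whose log2 fold change of 1.66 in AC and PVP vs. CK did not pass (edgeR adjusted p = 0.14). None of the 3 passed in any comparison. APG2 had counts that were not whole numbers in 3 libraries, so a small part of its reads was divided among transcripts, whereas the counts of GDL38, GDL34 and GDL29 were whole in all 12.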

How the data were processed

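RNA of 12 embryo seedling samples was sequenced with paired-end reads on an Illumina NovaSeq. The authors trimmed reads with TrimGalore 0.6.4, assembled them with Trinity 2.4.0, mapped them with Bowtie 1.2.3 and deposited RSEM 1.3.3 estimated counts per unigene and library, not normalized (roles per the methods, versions per the submitters' processing notes). Between 2.39% and 3.97% of values per library were not whole, and all were rounded. Without unigene lengths, levels are CPM, with TMM factors of 0.7515 to 1.464.

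The filter kept 58247 unigenes, those detected (count over 0) in 3 or more of the 12 libraries, and removed 72709. All 12 libraries were fitted with edgeR 4.0.16 (quasi-likelihood, R 4.3.3, limma 3.58.1), with Benjamini-Hochberg adjustment over all tested; the SE is the absolute log2 fold change over the square root of F. The code was tested on simulated data. Alternatives were other scalings, filters and dispersion settings, a replicate block, 2-group fits, DESeq2 1.42.0 and leaving out each library.

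Members and lists were chosen with earlier results of these data known. Named were all members, GDL31, GDL80, the second GDL29, the 3 unigenes of highest mean CPM per pathway list, the 3 named unigenes nearest each member (log2 CPM, prior count 2) and tested unigenes with a member's DN number. GDL66, GDL71, GDL83 and the other GDSL names were added after their values were seen. The authors' own columns of fold changes and p-values were not used.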

Additional observations from a re-analysis of the deposited data

How the results depend on the processing

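GDL34, GDL29 and APG2 stayed called in AC and PVP vs. CK under every other scaling, filter and tool run, and 2 to 3 members stayed called when each library was left out in turn. In those fits without a library the log2 fold change of GDL34 ran from 2.63 to 2.90. GDL38 was called in some alternatives. In PVP vs. CK its log2 fold change was 1.88 with an adjusted p of 0.00015 in edgeR with no filter, 1.98 with 0.012 by DESeq2 on all libraries, and 1.97 with 0.034 by DESeq2 on the 2 groups, so that 1 member was called in each, against 0 in edgeR with the filter and no block. Those 3 fits called 2.01%, 2.87% and 2.79% of the unigenes they tested. With no filter edgeR also called GDL38 in AC and PVP vs. CK, at -1.34 with an adjusted p of 0.036, and in AC vs. AC and PVP (-1.68, adjusted p = 0.016, 1 member called). It called 2.3% and 0.858% of the unigenes tested there, and the cause was not tested. DESeq2 on 2 groups gave no adjusted p for GDL29 in PVP vs. CK, and the interaction has no 2-group fit.

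With library sizes alone, the log2 fold change of GDL34 in PVP vs. CK was -0.39 and the interaction was 0.43 for GDL38 and 0.47 for APG2, signs opposite to those above, none of them called. That scaling moved the median of all unigenes to -0.76 in PVP vs. CK and to -0.50 in AC and PVP vs. CK. It called 1148 unigenes in PVP vs. CK (171 higher and 977 lower), against 410 (308 higher and 102 lower) with TMM, and 766 in AC and PVP vs. CK (210 higher and 556 lower), against 486 (270 higher and 216 lower). With RLE factors 452 were called in AC and PVP vs. CK (313 higher and 139 lower). The number of all unigenes called in AC and PVP vs. CK was 275 in the fit of the 2 groups, 815 with the filterByExpr filter, 2803 with no filter, 1608 with DESeq2 on all libraries and 1443 on the 2 groups.

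When single libraries were left out, the log2 fold change in PVP vs. CK ran from -0.23 to 0.37 for GDL34 and from -1.06 to 0.99 for GDL29. The interaction ran from -0.74 to 0.60 for GDL38, from -0.35 to 0.14 for APG2 and from 0.44 to 2.48 for GDL29, none called. The values of the comparisons that chose the members ran from 2.95 to 4.95 for GDL29 in AC vs. CK, from -5.27 to -4.14 for GDL38 and from 3.52 to 4.48 for GDL29 in AC vs. PVP, and from -3.57 to -2.44 for GDL38 in AC and PVP vs. PVP. The number of all unigenes called ran from 33 to 739 in AC and PVP vs. CK and from 5 to 268 in PVP vs. CK, with the lowest in both without CK replicate 3. By Spearman's rho, 0 of the 3 unigenes nearest GDL29 were shared.

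Libraries share replicate numbers across groups, and whether these numbers pair the samples is not settled here. The study's methods describe the biological replicates as paired without saying how. Of 18 same-number pairs, 6 had a correlation of deviations over 0.1 (range -0.147 to 0.153), while 8 of 12 libraries correlated best with their own number. With the replicate block, edgeR called GDL38 in PVP vs. CK (1.83, adjusted p = 0.0046, 1 member called). It called 1324 unigenes there and 1448 in AC and PVP vs. CK, against 410 and 486 without the block.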
